A study of Mus musculus with 4 samples.

Results

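The genes of leukotriene and prostaglandin synthesis were followed across the CD45+ cells of mouse nasal mucosa (CD45 is a surface protein of leukocytes). The 10 genes were chosen by symbol, as Alox5, Alox5ap, Ltc4s, Lta4h, Alox15, Ptgs1, Ptgs2, Hpgds, Ptges and Cysltr1, and each symbol matched 1 of the 27998 genes listed. All cells came from C57BL/6 mice aged 8 weeks. Single libraries stood for 4 groups labelled Vehicle, Vehicle-OVA, Ribavirin and Ribavirin-OVA, where OVA is ovalbumin, the allergen of the rhinitis model, and ribavirin is an antiviral drug. In the model described with the study, mice are sensitised to OVA with alum by injection and then challenged through the nose. The doses and schedule of vehicle and ribavirin, and the number of mice behind a library, are not given in the sources used here. A single library per group leaves the variation between mice unmeasured, so no difference was tested. Values are CPM, the UMIs (counted molecules) of a gene in a group of cells scaled to a total of 1000000 UMIs for those cells, with 95% intervals that cover counting error only. Sets of 4 values without names follow the order of the groups just given.

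Leukotrienes and prostaglandins are lipid mediators made from arachidonic acid within minutes of cell activation. On the leukotriene side, 5-lipoxygenase (Alox5) works with its activating protein (Alox5ap) to give LTA4, which LTC4 synthase (Ltc4s) joins to glutathione and LTA4 hydrolase (Lta4h) turns into LTB4, a chemoattractant for neutrophils. The cysteinyl leukotrienes that follow from LTC4 act on receptors such as Cysltr1 and are known in the nose for swelling and mucus secretion, with mast cells, eosinophils and macrophages as the usual sources. On the prostaglandin side, the cyclooxygenases Ptgs1 and Ptgs2 make PGH2, which Hpgds turns into PGD2 and Ptges into PGE2. Alox15 is the lipoxygenase that oxidises arachidonic acid at another carbon and is known from airway epithelium and eosinophils.

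The libraries held 10311 to 28277 cells with a median of 3389 to 4952 UMIs per cell, and 69765 cells were kept (24404, 17030, 19584 and 8747). Between 196 and 404 barcodes per library were also listed in another library. The cells fell into 44 clusters, which gave 16 classes named from marker genes and 7 clusters without a name. Of these, 11 classes or clusters had at least 100 cells in every library. Epithelial-like, endothelial-like, stromal-like and olfactory neuron-like cells were present although the cells had been enriched for CD45. Neutrophil-like cells made up 16.9%, 60.2%, 23.7% and 20.1% of cells. The Vehicle-OVA library stood apart from the other 3 by this share.

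Siglecf encodes a sialic acid-binding lectin best known from eosinophils and alveolar macrophages, and it is also found on some neutrophils of inflamed or nasal tissue. Siglecf neutrophils were defined here by clusters in which at least 20% of cells had a Siglecf UMI, at least 30% a Csf3r UMI and under 20% a C1qa UMI. Only cluster 0 met the rule, with Siglecf UMIs in 68.9% of cells, Csf3r UMIs in 92.5% and C1qa UMIs in 13.3%. The nearest cluster outside the rule was neutrophil-like cluster 1, with Siglecf UMIs in 18.6% of cells. Siglecf neutrophils numbered 6467 cells and made up 12.1%, 3.96%, 10.2% and 9.63% of cells. Of their neutrophil markers, Csf3r, the receptor for the growth factor G-CSF, was at 1035, 2249, 1138 and 2399 CPM against 1682, 1726, 1537 and 2105 CPM in neutrophil-like cells. S100a8, a calcium-binding protein that is abundant in neutrophils, was at 20089.7, 6088, 19709.7 and 5851 CPM against 38547, 28670.1, 44973 and 44332 CPM. Retnlg was far lower, at 92.6, 80.7, 125 and 63.8 CPM against 2583, 4084, 4132 and 7210 CPM. So was Mmp8, at 5.01, 21.2, 8.90 and 10.3 CPM against 385, 502, 498 and 1478 CPM. Not every marker was lower, and Mmp9 was above neutrophil-like cells in each library except Vehicle. The 10 neutrophil markers summed to 65745, 31171, 69344 and 30548 CPM, lower than in neutrophil-like cells of the same library, which had 114683, 82037, 139165 and 117492 CPM. Eosinophil peroxidase (Epx), which defines eosinophils, had no UMI in Siglecf neutrophils of any library, and the 8 eosinophil markers summed to 4.56, 5.17, 4.98 and 7.93 CPM. Macrophage markers summed to 2181, 668, 1954 and 920.4 CPM, and their part in the levels below was not tested. The members, the other genes of the pathway and Siglecf were kept out of the genes used for clustering. Levels in Siglecf neutrophils are nevertheless a description, since the cells were grouped by their own RNA.

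Promoter sequence is shown for Ltc4s and Ptgs1, whose levels followed each other most closely across the cell classes. It is also shown for Ptgs2, the other cyclooxygenase, which among the 11 classes was highest in another class than Ptgs1. RefSeq promoters (GRCm38.p6) were found for 7 of the 10 genes, Alox5ap, Alox15 and Cysltr1 being the others. The stretches are the bases before the start of the gene, 5′ to 3′ on the strand of the gene, at chr11:50238617-50238782 on the minus strand for Ltc4s, chr2:36230176-36230425 on the plus strand for Ptgs1 and chr1:150099781-150100030 on the plus strand for Ptgs2. Capitals mark matches to 1 of 6 short motifs searched on both strands.
Ltc4s: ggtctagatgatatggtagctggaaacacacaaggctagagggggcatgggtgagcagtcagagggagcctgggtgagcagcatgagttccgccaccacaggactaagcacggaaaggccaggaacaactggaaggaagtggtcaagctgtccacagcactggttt
Ptgs1: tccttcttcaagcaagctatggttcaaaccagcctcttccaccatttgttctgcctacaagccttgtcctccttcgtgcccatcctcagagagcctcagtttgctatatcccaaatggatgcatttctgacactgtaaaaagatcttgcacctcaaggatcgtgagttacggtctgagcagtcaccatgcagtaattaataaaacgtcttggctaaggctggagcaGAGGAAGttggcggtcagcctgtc
Ptgs2: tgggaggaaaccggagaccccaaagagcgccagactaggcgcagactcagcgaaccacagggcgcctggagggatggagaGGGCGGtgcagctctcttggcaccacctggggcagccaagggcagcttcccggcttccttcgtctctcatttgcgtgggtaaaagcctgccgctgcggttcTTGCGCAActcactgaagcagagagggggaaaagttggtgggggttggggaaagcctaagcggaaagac
The motifs were AGATAA for GATA factors, GAGGAAG for PU.1, GGGCGG for Sp1, TTGCGCAA for C/EBP, TGACGT for CREB and TGANTCA for AP-1. The PU.1 letters were matched in the Ptgs1 stretch, at bases 227 to 233, and are held by 10.6% of all 32851 promoters. The Ptgs2 stretch held the Sp1 letters at bases 81 to 86 (32.7% of promoters) and the palindromic C/EBP letters at bases 182 to 189 (0.164% of promoters). No other motif was matched in the Ptgs1 and Ptgs2 stretches, and none in the Ltc4s stretch, which was 166 bases long against 250 in the share given for all promoters. The other shares were 9.99% for GATA, 6.47% for CREB and 6.75% for AP-1. A match is a description of the letters and shows no binding.

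Ltc4s (ENSMUSG00000020377, chr11:50236461-50238616) was high in Siglecf neutrophils, in 1 cluster of epithelial-like cells (cluster 34) and in the unnamed cluster 30, and low elsewhere. In Siglecf neutrophils it was at 521 CPM in Vehicle (506 to 536), 281 in Vehicle-OVA (258 to 306), 479 in Ribavirin (462 to 496) and 261 in Ribavirin-OVA (241 to 281), from 4572, 543, 3172 and 657 UMIs. Both libraries without OVA were above both with OVA. All other cells of the same library, pooled, had less. The ratio of Siglecf neutrophils to this pool of all other cells was 25.5-fold in Vehicle (24.4 to 26.8), 23.96-fold in Vehicle-OVA (21.6 to 26.6), 27.5-fold in Ribavirin (26.1 to 28.9) and 24.5-fold in Ribavirin-OVA (22.1 to 27.2). Siglecf neutrophils thus held 61.2%, 34.2%, 55.1% and 43.3% of all Ltc4s UMIs while they held 5.82%, 2.12%, 4.28% and 3.01% of all UMIs. Cluster 34 of the epithelial-like cells, led by Trpm5, Rgs13, Sh2d6 and Avil, was at 732, 509, 686 and 446 CPM, above Siglecf neutrophils in every library. Cluster 30, which is led by Crybb1, Sall3 and Sall1 and was left unnamed, was at 329.9, 199.7, 319 and 186 CPM, below them in every library. By its markers cluster 30 was a kind of macrophage, with C1qa UMIs in 100% of cells. Its macrophage markers summed to 55854, 46391, 53077 and 48542 CPM, against 66451, 33985, 60964 and 38340 CPM in the macrophage-like class, which does not include it.

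In neutrophil-like cells Ltc4s was at 66.8, 10.7, 42.5 and 25.8 CPM, with the lowest value in Vehicle-OVA. Macrophage-like cells had 29.7, 25.3, 24.2 and 48.5 CPM and the other epithelial-like cells 6.52, 3.98, 4.56 and 5.56 CPM. The remaining classes with at least 100 cells in every library, among them monocyte-like, cDC-like (conventional dendritic) and T cell-like cells, ranged from 0 to 16.6 CPM. Mast cell-like cells, a textbook source of LTC4, were few (15, 37, 19 and 47 cells) and had 0, 0, 1 and 9 UMIs of Ltc4s. At that number of cells the limit that a count of 0 allows was 67.2 CPM for Vehicle and 13.9 CPM for Vehicle-OVA. The gene Gm26542 overlaps Ltc4s on the other strand, and whether the counting used strand is not stated in the sources used here.

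**Figure D1:**
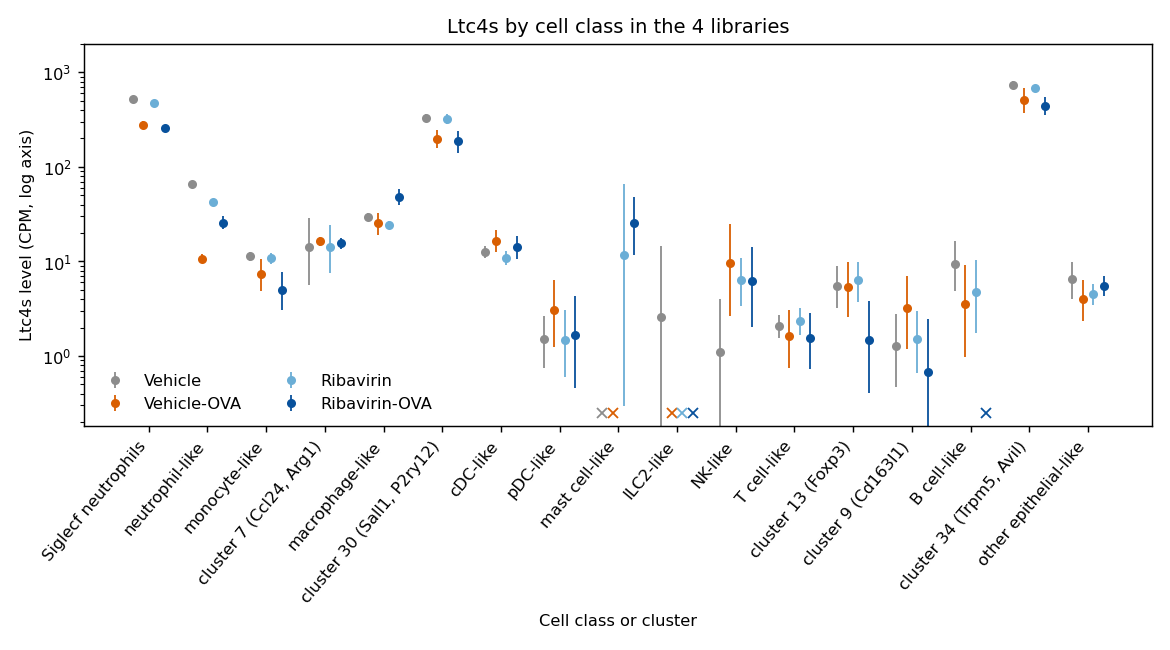
Level of Ltc4s (CPM, log axis) in cell classes and clusters, with 1 point per library coloured by group and bars for the 95% counting interval; crosses mark libraries with no Ltc4s UMI. The points of Siglecf neutrophils lie between 261 and 521 CPM, with those of cluster 34 above them and those of neutrophil-like cells at 66.8 CPM or less.

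Ltc4s also went with Siglecf within the classes. Siglecf neutrophils with a Siglecf UMI had 548, 297, 522 and 312 CPM and those without one had 424, 236, 337 and 155 CPM. Neutrophil-like cells with a Siglecf UMI had 214, 64.4, 198 and 96.9 CPM of Ltc4s against 24.9, 7.16, 16.00 and 13.7 CPM in those without. In both classes the cells with a Siglecf UMI were higher in all 4 libraries, and a cell with more UMIs has more chance of showing one. This was not particular to Ltc4s. In neutrophil-like cells Cysltr1 was at 33.1, 39.2, 32.4 and 42.1 CPM with a Siglecf UMI against 7.43, 4.70, 5.23 and 8.03 CPM without. Ptgs1 was also higher with one in each library. The class pools clusters with Siglecf UMIs in 1.93% (cluster 3) to 18.6% (cluster 1) of cells, and the part of this was not tested. After each cell was thinned to 1000 UMIs, 35.1%, 22.1%, 32.3% and 19.2% of Siglecf neutrophils had an Ltc4s UMI, and 61.1%, 39.6%, 60.2% and 36.8% before thinning. The thinned share was 3.59%, 0.986%, 2.82% and 2.47% in neutrophil-like cells, which before thinning had 8.04%, 2.26%, 6.18% and 5.52%. In T cell-like cells, which should lack the gene, the thinned share was 0.174%, 0.205%, 0.108% and 0%, and the 0 of 989 cells in Ribavirin-OVA allow a share of up to 0.372%. Median UMIs per cell were 2764, 2773, 3050 and 2911 in Siglecf neutrophils and 2085, 2862, 2683 and 2969 in neutrophil-like cells. For the T cell-like class the medians were 4322, 4601, 4821 and 5189. The shares in both kinds of neutrophil were above that of T cell-like cells in every library.

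Alox5 (ENSMUSG00000025701, chr6:116410077-116461178), the 5-lipoxygenase that starts the leukotriene pathway, had 152, 163, 143 and 169 CPM in Siglecf neutrophils. Neutrophil-like cells had 98.9, 48.3, 75.1 and 127 CPM, lower in every library. Within neutrophil-like cells it was highest in cluster 23, led by Camp and Ngp, granule genes of young neutrophils, at 119, 197, 116 and 216 CPM, and low in cluster 3, at 22.5 CPM in Vehicle-OVA. Cluster 34 was above all of these at 503, 864, 479 and 908 CPM, from 303, 73, 422 and 167 UMIs. Mast cell-like cells had 179, 407, 141 and 480.3 CPM from 8, 88, 12 and 170 UMIs. Every other class with at least 100 cells per library, leaving out the epithelial-like class that holds cluster 34, was at 13.2 CPM or less. Alox5 was thus found in neutrophils, mast cell-like cells and cluster 34.

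Alox5ap (ENSMUSG00000060063, chr5:149264767-149288153), which presents arachidonic acid to 5-lipoxygenase, was spread over all myeloid classes. Its levels were 1000.4, 839, 925 and 923 CPM in neutrophil-like cells, the highest of the 11 classes in each library except Vehicle-OVA. Monocyte-like cells had 546, 856, 577 and 773 CPM, with the highest value of Vehicle-OVA. Siglecf neutrophils had 859, 551, 743 and 523 CPM, lower than neutrophil-like cells throughout. Dendritic cells ranged from 439.5 to 575 CPM over the cDC-like and pDC-like (plasmacytoid) classes. Macrophage-like cells were at 199 to 265 CPM and lymphocyte classes at 8.42 to 58.3 CPM. Mast cell-like cells had 1322, 1315, 1183 and 938 CPM and cluster 34 had 1219, 1124, 1099 and 1093 CPM, both in the range of neutrophil-like cells or above it. Gm19719 overlaps Alox5ap on the other strand.

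Lta4h (ENSMUSG00000015889, chr10:93453411-93484875), whose product LTB4 draws neutrophils, was the most evenly spread member. Over the 11 classes it ranged from 20.5 to 159 CPM, and the class with the highest level was cDC-like in Vehicle and Vehicle-OVA, cluster 9 (led by Cd163l1) in Ribavirin and neutrophil-like in Ribavirin-OVA. NK-like cells, of which Vehicle-OVA held under 100, had 105, 148, 116 and 174 CPM, above all 11 classes in each library. Neutrophil-like cells came nearest in Ribavirin-OVA, with 159 CPM against 174. Within neutrophil-like cells it was highest in cluster 23, at 284, 319.6, 320.3 and 446 CPM, while clusters 1 and 4 had 6.97 to 15.7 CPM. Siglecf neutrophils had 38.95, 37.3, 33.05 and 42.03 CPM. In these cells Ltc4s and Lta4h were therefore both detected, with Lta4h within the range of the other leukocyte classes.

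Alox15 (ENSMUSG00000018924, chr11:70344152-70352031) was an epithelial gene in these cells. Epithelial-like cells had 67.7 CPM in Vehicle (59.7 to 76.5), 254 in Vehicle-OVA (239.5 to 269.7), 111 in Ribavirin (106 to 117) and 451 in Ribavirin-OVA (439.7 to 463). Cluster 25, led by Krt15, Muc5ac and Krt5, had 73.5, 405, 135 and 619.6 CPM, and cluster 33, led by Sec14l3 and Muc2, had 157, 239, 171 and 427 CPM. Both were higher in the OVA libraries. The other 10 classes with at least 100 cells per library were at 9.21 CPM or less, and in each of the 11 Ribavirin-OVA had the highest value. Whether free epithelial RNA adds to these low levels was not tested. Mast cell-like cells had 44.8, 37.04, 58.6 and 48.03 CPM, from 2, 8, 5 and 17 UMIs. In cluster 34 it was at or near zero (1, 0, 1 and 1 UMIs).

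Ptgs1 (ENSMUSG00000047250, chr2:36230426-36252272), the constitutive cyclooxygenase, was found in the same classes as Ltc4s and in macrophage-like cells. Siglecf neutrophils had 225 CPM in Vehicle (215 to 235), 397 in Vehicle-OVA (369.8 to 427), 213 in Ribavirin (202 to 224) and 326 in Ribavirin-OVA (304 to 349). Here both OVA libraries were above both without OVA, the opposite order to Ltc4s. Neutrophil-like cells had 55.4, 23.98, 35.6 and 65.9 CPM, and macrophage-like cells had 132, 176, 124 and 265 CPM. As for Ltc4s, cluster 34 (815, 745, 713 and 1066 CPM) was above Siglecf neutrophils. Cluster 30 had 466, 383, 307 and 510.4 CPM, above them in each library except Vehicle-OVA. Lymphocyte classes were at 1.34 to 15.1 CPM.

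Ptgs2 (ENSMUSG00000032487, chr1:150100031-150108227), the inducible cyclooxygenase, was a neutrophil gene here. Neutrophil-like cells had 1952 CPM in Vehicle (1926 to 1978), 4455 in Vehicle-OVA (4432 to 4478), 2003 in Ribavirin (1981 to 2026) and 2007 in Ribavirin-OVA (1973 to 2042), and Vehicle-OVA was more than 2-fold above the other 3 libraries, which lay close together. Cluster 3, led by Serpinb2, Csf3 and Cxcl3, was at 5707 CPM in Vehicle-OVA and cluster 18, led by interferon-stimulated genes such as Rsad2, at 5261 CPM. Siglecf neutrophils had 818, 2005, 1063 and 1961 CPM, with both OVA libraries above both without. Ptgs2 is known as an immediate-early gene that can also be induced by tissue digestion. The summed level of 12 dissociation stress genes moved with it in Siglecf neutrophils, at 12606, 27562, 15849 and 28567 CPM, and its part in the result was not tested. In neutrophil-like cells the same list was at 21404, 22778, 20848 and 25385 CPM. Mast cell-like cells had 762, 4705, 351 and 1059 CPM, monocyte-like cells 320.2, 483, 368 and 243 CPM and macrophage-like cells 234, 380.1, 212 and 174 CPM.

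Hpgds (ENSMUSG00000029919, chr6:65117293-65144908), the synthase of PGD2 in leukocytes, was highest in macrophages among the 11 classes, at 172, 171, 148 and 240.3 CPM in macrophage-like cells. Cluster 30, which also had macrophage markers, was above the macrophage-like class at 448, 399, 433 and 460.0 CPM. Mast cell-like cells, the textbook source of PGD2, had 179, 97.2, 58.6 and 164 CPM from 8, 21, 5 and 58 UMIs. Siglecf neutrophils had the lowest mean of the 11 classes, at 4.33, 3.62, 3.62 and 4.76 CPM. Ptges (ENSMUSG00000050737, chr2:30889471-30929863), the synthase of PGE2 that is induced together with Ptgs2, was highest in epithelial-like cells, at 38.4, 106, 58.5 and 57.1 CPM, and within them in cluster 25 (95.8, 191, 107 and 98.5 CPM). Cluster 7, led by Ccl24 and Arg1 and left unnamed, had 14.1, 29.7, 42.8 and 4.34 CPM. In neutrophil-like cells Ptges was at 1.08, 10.2, 2.87 and 7.94 CPM and in Siglecf neutrophils at 0.683 to 2.11 CPM.

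Cysltr1 (ENSMUSG00000052821, chrX:106574346-106603679), a receptor for LTD4 and LTC4, had its highest level of the 11 classes in Siglecf neutrophils, at 105 CPM in Vehicle (98.01 to 112), 109.7 in Vehicle-OVA (95.4 to 126), 86.6 in Ribavirin (79.7 to 94.00) and 98.7 in Ribavirin-OVA (86.9 to 112). The 4 values lay close together, while neutrophil-like cells had 13.1, 6.86, 9.20 and 12.97 CPM. ILC2-like cells (group 2 innate lymphoid cells, which respond to cysteinyl leukotrienes) had 169, 241, 98.1 and 179.6 CPM, from 65, 43, 43 and 128 UMIs, above Siglecf neutrophils in every library. Cluster 30, cDC-like, macrophage-like and monocyte-like cells ranged from 37.9 to 105 CPM. Gm5127 overlaps Cysltr1 on the other strand. Among the 11 classes with at least 100 cells in every library, the class with the highest level was the same in all 4 libraries for 8 of the 10 members, and Alox5ap and Lta4h were the exceptions. The count was 5 at mitochondrial limits of 5% and 20% and with the mean of single-cell CPM. The share of all genes with the same highest class in all 4 libraries was not taken, so the count is not particular to the members. Of these classes, Alox5, Ltc4s, Ptgs1 and Cysltr1 had their highest level in Siglecf neutrophils, Ptgs2 in neutrophil-like, Hpgds in macrophage-like, and Alox15 and Ptges in epithelial-like cells.

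**Figure D2:**
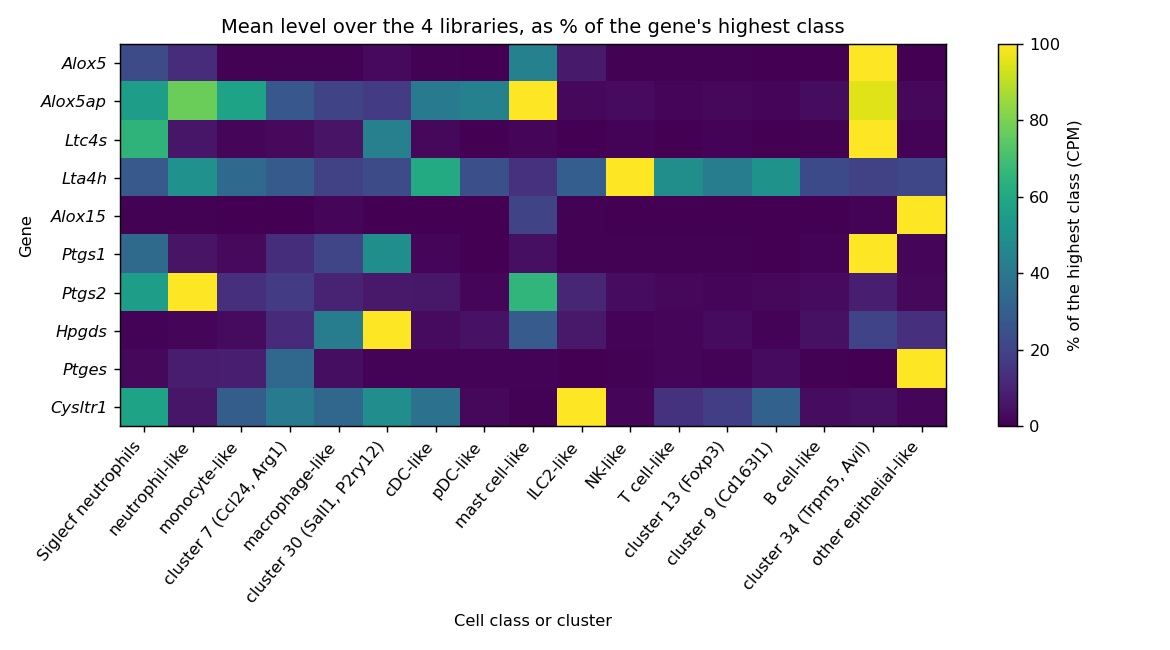
Mean CPM over the 4 libraries of each member (rows) in cell classes and clusters (columns), as a percentage of the class in which that gene is highest, from 0 to 100 on the colour scale. Rows cannot be compared with each other; Ltc4s, Alox5 and Ptgs1 share cluster 34 and Siglecf neutrophils, Ptgs2 is highest in neutrophil-like cells, and Alox15 and Ptges in the epithelial-like cells outside cluster 34.

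Siglecf neutrophils were next compared with neutrophil-like cells of the same library, the class nearest to them. The ratio of Ltc4s was 7.80-fold in Vehicle (7.21 to 8.44), 26.1-fold in Vehicle-OVA (22.8 to 29.98), 11.3-fold in Ribavirin (10.3 to 12.3) and 10.1-fold in Ribavirin-OVA (8.52 to 12.03). Cysltr1 was 7.99, 15.99, 9.42 and 7.61-fold and Ptgs1 4.06, 16.6, 5.97 and 4.94-fold of the level in neutrophil-like cells. Alox5 was 1.54, 3.37, 1.91 and 1.33-fold. These 4 genes were higher in Siglecf neutrophils in all 4 libraries, with no interval that reached 1. Alox5ap was lower in all 4, at 0.858, 0.656, 0.803 and 0.567-fold. Ptgs2 was at 0.419, 0.45, 0.53 and 0.977-fold, lower except in Ribavirin-OVA, where both kinds of neutrophil were near each other. Lta4h (1.04, 1.67, 0.585 and 0.264-fold) and Hpgds (1.37, 0.203, 1.21 and 0.693-fold) were not in the same direction in all libraries. The ratios of Ltc4s, Ptgs1, Alox5 and Cysltr1 were largest in Vehicle-OVA, in which the neutrophil-like class had another makeup, given below.

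**Figure D3:**
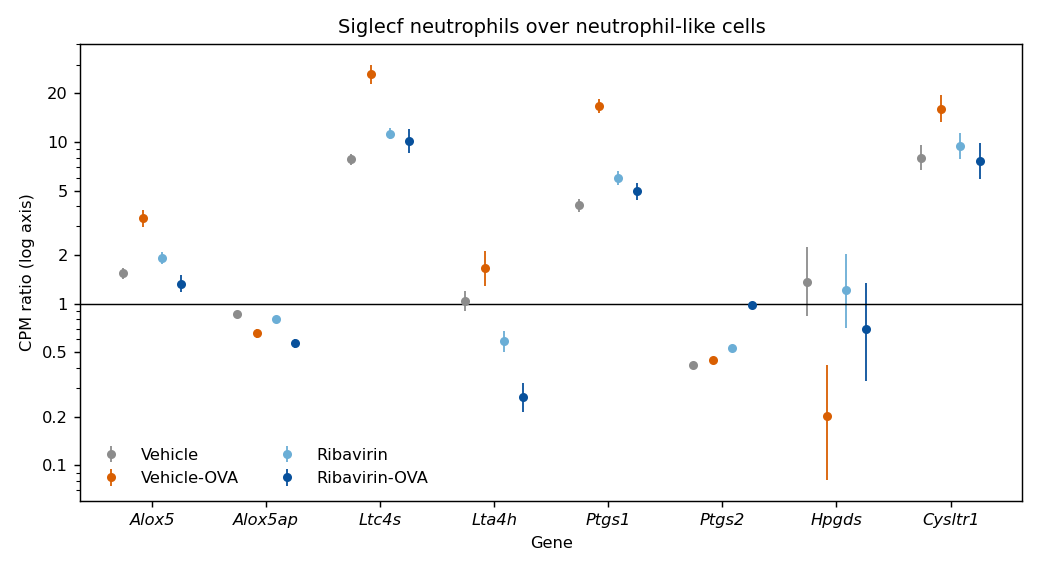
Ratio of the CPM of Siglecf neutrophils to that of neutrophil-like cells of the same library (log axis) for 8 members, 1 point per library with its 95% counting interval. Ltc4s, Ptgs1, Cysltr1 and Alox5 lie above 1 in all 4 libraries and Alox5ap below 1; the largest ratio is 26.1-fold for Ltc4s in Vehicle-OVA.

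To see which members differed with allergen, each OVA library was set against its own control, Vehicle-OVA against Vehicle and Ribavirin-OVA against Ribavirin. A gene was called where it was at least 2-fold apart in the same direction in both pairs, on log2(CPM + 1), among genes with at least 50 UMIs in the class. In Siglecf neutrophils 0 of the 8 members with enough UMIs were called, where the rule called 5.94% of all genes of that class. Ltc4s came nearest on the lower side, at 0.54-fold (0.493 to 0.59) in the Vehicle pair and 0.544-fold (0.5 to 0.592) in the Ribavirin pair, close to equal in both. Alox5ap was also lower in both, at 0.641-fold and 0.704-fold. Ptgs1 was higher in both, at 1.77-fold (1.62 to 1.92) and 1.53-fold (1.40 to 1.67). Ptgs2 was higher at 2.45-fold (2.36 to 2.55) and 1.85-fold (1.78 to 1.91). Alox5 (1.07-fold and 1.18-fold) was nearer to 1 in both pairs. Lta4h was 0.956-fold and 1.27-fold, and Hpgds, from few UMIs, 0.837-fold and 1.31-fold.

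The synthase that makes LTC4 was thus lower and the 2 cyclooxygenases higher in Siglecf neutrophils of both OVA libraries, with the receptor Cysltr1 at 1.05-fold and 1.14-fold. The log2 ratios of Ltc4s were -0.89 and -0.87, and the median over all genes of the class was 0.20 and 0.22. The median over the 8 members was 0.00 and 0.28. With the median of all genes taken off, Ltc4s passed 2-fold in both pairs. With a mitochondrial limit of 5% instead of 10%, both Ltc4s and Ptgs2 passed it. Neutrophil markers also moved in Siglecf neutrophils. S100a8 was lower in both OVA libraries, as given above, and S100a9, the partner of S100a8, was at 39320.0, 14149.8, 42308 and 13408 CPM. Csf3r was higher in both, and so were Mmp9, a protease of neutrophil granules, at 1086, 2548, 1309 and 2771 CPM and Il1r2, a decoy receptor for interleukin-1, at 1060.4, 2205, 1191 and 2327 CPM. Whether any of this bears on Ltc4s was not tested. Ltc4s over all cells of a library was 49.5, 17.4, 37.2 and 18.2 CPM, a sum in which the share of Siglecf neutrophils also counts.

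In neutrophil-like cells 1 of the 10 members was called, against 3.58% of all genes. This was Ptges, at 9.38-fold (5.30 to 18.3) and 2.76-fold (1.82 to 4.21), from 12, 335, 45 and 52 UMIs. Where cells were classed from single-cell UMIs its call was lost, at a log2 ratio of 0.87 in the Ribavirin pair. Hpgds was higher at 5.65-fold and 2.29-fold, the second just under the limit on the log2 scale (0.98). Ltc4s was lower in both pairs, at 0.161-fold (0.141 to 0.183) and 0.607-fold (0.509 to 0.719). Alox5, Lta4h and Ptgs1 went opposite ways. Alox5 was 0.488-fold in the Vehicle pair and 1.70-fold in the Ribavirin pair. Lta4h was 0.595-fold and 2.82-fold, and Ptgs1 0.433-fold and 1.85-fold. Ptgs2 was 2.28-fold (2.25 to 2.32) in the Vehicle pair and 1.002-fold (0.982 to 1.02) in the Ribavirin pair. The median log2 ratio over all genes also went opposite ways, at -0.40 and 0.36, and over the 10 members it was -0.49 and 0.81.

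The clusters that made up the neutrophil-like class differed between libraries. Cluster 1, led by Cxcr2 and Lrg1, was 72.2%, 8.41%, 31.7% and 30.5% of the class, cluster 3 0.17%, 39.6%, 1.03% and 4.15%, cluster 4 (led by Mmp8 and Retnlg) 15.4%, 12.1%, 38.2% and 18.1% and cluster 23 2.95%, 1.30%, 5.71% and 15.3%. Cluster 3, which made up much of the class in Vehicle-OVA alone, had low Alox5 (22.5 CPM), Lta4h (4.27 CPM), Ptgs1 (5.65 CPM) and Ltc4s (1.84 CPM) there. Cluster 23, with the highest Lta4h, took its largest share in Ribavirin-OVA. Of the 4129, 10256, 4644 and 1758 cells of the class, cluster 5, led by Hspa1b, Mreg and Hspa1a, held 198, 3096, 85 and 374. Cluster 18 held 155, 854, 143 and 116, and cluster 21, led by Asprv1 and Cxcl3, held 29, 8, 860 and 71. The part of this makeup in the ratios of the whole class was not tested. Ratios inside the class were taken for clusters 1, 4 and 23 only, not for clusters 3, 5, 18 and 21. In Vehicle-OVA clusters 1, 4 and 23 held 863, 1236 and 133 of the 10256 cells, so their ratios do not stand for the class. Within them all 18 OVA ratios of Alox5, Lta4h and Ptgs1 were above 1, but the counting interval was clear of 1 in only 7. The share of all genes above or below 1 in these clusters was not taken, so these counts are not particular to the members. Ptgs1 in cluster 1 was 1.72-fold (1.49 to 1.99) in the Vehicle pair and 2.04-fold (1.69 to 2.47) in the Ribavirin pair. Alox5 in cluster 23 was 1.66-fold (1.34 to 2.07) and 1.87-fold (1.60 to 2.18). Ltc4s was below 1 in all 6 ratios and clear of 1 in 3. In cluster 1 it was 0.36-fold (0.281 to 0.455) and 0.682-fold (0.526 to 0.876), and cluster 4 had too few UMIs (5, 6, 51 and 6 UMIs) to tell, at 0.407-fold (0.103 to 1.69) and 0.552-fold (0.193 to 1.29).

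**Figure D4:**
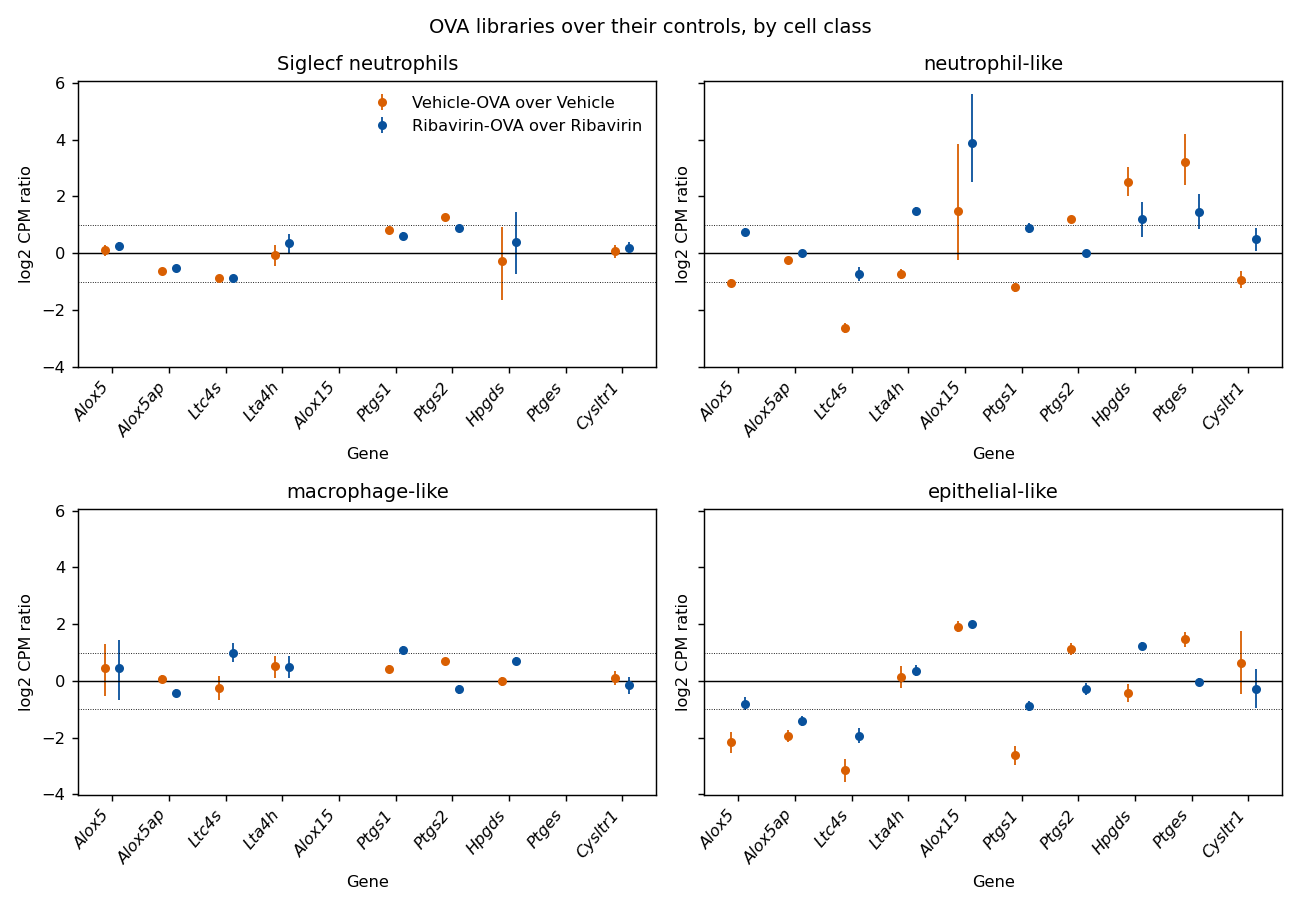
Log2 ratio of CPM, with no pseudocount, of Vehicle-OVA over Vehicle (orange) and Ribavirin-OVA over Ribavirin (blue) for the members with enough UMIs in 4 classes, with 95% counting intervals; dotted lines mark 2-fold. In Siglecf neutrophils the pairs have the same sign for Ltc4s, Alox5ap, Ptgs1 and Ptgs2, while in neutrophil-like cells Alox5, Lta4h and Ptgs1 lie on opposite sides of 0.

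In macrophage-like cells 0 of the 8 members with enough UMIs were called, against 3.79% of all genes. Hpgds was 0.992-fold in the Vehicle pair and 1.62-fold in the Ribavirin pair. Ptgs1 was 1.34-fold (1.20 to 1.49) and 2.14-fold (1.94 to 2.35), and Ltc4s 0.851-fold (0.635 to 1.12) and 2.001-fold (1.59 to 2.50). The median log2 ratio over all genes was 0.21 and 0.22, that over the 8 members 0.24 and 0.43. Cells of cluster 17, with a median of 1052 UMIs against 10347 in cluster 6, made up 20.4%, 78.5%, 9.15% and 71.8% of the cells of the class. By summed UMIs cluster 6 was the larger, with 1583949 of 2215433 UMIs in Vehicle-OVA and 1636921 of 2063838 in Ribavirin-OVA. Without cluster 17 the count stayed 0. The unnamed cluster 7 also had macrophage markers, with C1qa UMIs in 83.3% of cells, and is not in the class. It held 46, 1978, 85 and 1352 cells against 2326, 585, 1704 and 444 in the class. The ratios above therefore leave out many of the OVA cells with macrophage markers. With clusters 7 and 30 added the count stayed 0. In monocyte-like cells 1 of the 9 members was called, against 8.79% of all genes. It was Lta4h, at 2.33-fold (2.01 to 2.70) and 2.47-fold (2.13 to 2.86), from levels of 27.4, 63.9, 27.4 and 67.7 CPM. The monocyte-like class pooled cluster 2, led by Ly6i and Cxcl9, with 2589, 160, 1766 and 101 cells, and cluster 16. Cluster 16, led by Ace and Vcan, had 459, 245, 497 and 294 cells. The part of this makeup in the call of Lta4h was not tested.

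In cDC-like cells 0 of 8 members were called, against 5.57% of all genes, with Lta4h just under the limit (1.94-fold and 1.96-fold). In pDC-like cells 0 of 5 were called (4.4% of all genes), in B cell-like cells 0 of 4 (7.18%) and in cluster 9 0 of 5 (6.45%). In cluster 13, led by Foxp3, 1 of 5 was called against 7.67% of all genes. It was Cysltr1, at 3.06-fold (2.18 to 4.32) and 2.32-fold (1.62 to 3.37), from 55, 102, 46 and 101 UMIs. In T cell-like cells 1 of 8 was called against 8.78% of all genes, and it was Alox5, from 33, 27, 18 and 86 UMIs in all. That call was lost under 5 of the alternative settings.

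Ptgs2 in lymphocytes differed in opposite directions in the pairs. T cell-like cells had 11.04, 176, 24.9 and 11.3 CPM, that is 15.98-fold (13.97 to 18.3) in the Vehicle pair and 0.455-fold (0.35 to 0.583) in the Ribavirin pair. Cluster 13 had 24.6, 118, 24.6 and 10.4 CPM. Neutrophil markers moved with it, summing to 619, 2619, 1034 and 409 CPM in T cell-like cells and 649.5, 2889, 1321 and 645 CPM in cluster 13. The thinned share of T cell-like cells with a Ptgs2 UMI was 0.803%, 12.5%, 1.90% and 1.52%. Vehicle-OVA, which was high in all 3 measures, was also the library with the largest share of neutrophil-like cells, and the part of neutrophil RNA in the level of Ptgs2 was not tested.

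Epithelial-like cells had the most members called, 3 of 10 against 2.68% of all genes. Alox15 was higher with OVA, at 3.76-fold (3.28 to 4.32) and 4.06-fold (3.84 to 4.29). Alox5ap was lower at 0.26-fold and 0.377-fold, and Ltc4s at 0.114-fold and 0.263-fold. The class held cluster 34, in which Trpm5, an ion channel of taste and other chemosensory cells, and Avil, an actin-binding protein, lead, and whose leukotriene genes are given above. Its share of epithelial-like cells was 39.9% in Vehicle (33.9 to 46.2), 5.63% in Vehicle-OVA (2.46 to 10.8), 19.97% in Ribavirin (16.8 to 23.4) and 5.03% in Ribavirin-OVA (2.84 to 8.17), or 103, 8, 119 and 15 cells. Both OVA libraries had the smaller share.

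Without cluster 34 neither gene was 2-fold lower in either pair. Alox5ap in the other epithelial-like cells was then 1.24-fold (0.952 to 1.63) and 0.789-fold (0.657 to 0.947), and Ltc4s 0.611-fold (0.302 to 1.22) and 1.22-fold (0.852 to 1.75). Alox15 stayed higher, at 3.24-fold (2.83 to 3.72) and 3.87-fold (3.66 to 4.09). Within cluster 34, from few cells in the OVA libraries, Alox5 was 1.72-fold (1.31 to 2.23) and 1.89-fold (1.57 to 2.27), higher in both. Ltc4s there was 0.695-fold (0.496 to 0.952) and 0.65-fold (0.509 to 0.819), lower in both, as in Siglecf neutrophils. Alox5ap within cluster 34 was 0.922-fold and 0.995-fold. Ptges outside cluster 34 was 2.37-fold (1.96 to 2.87) in the Vehicle pair and 0.93-fold (0.841 to 1.03) in the Ribavirin pair, and Hpgds 1.07-fold (0.825 to 1.39) and 2.44-fold (2.23 to 2.68), so each was higher in 1 pair alone. The cells had been enriched for CD45, which is encoded by Ptprc, and cluster 34 had 396, 201, 383 and 272 CPM of Ptprc from 239, 17, 337 and 50 UMIs. The part of the enrichment in these shares was not tested.

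**Figure D5:**
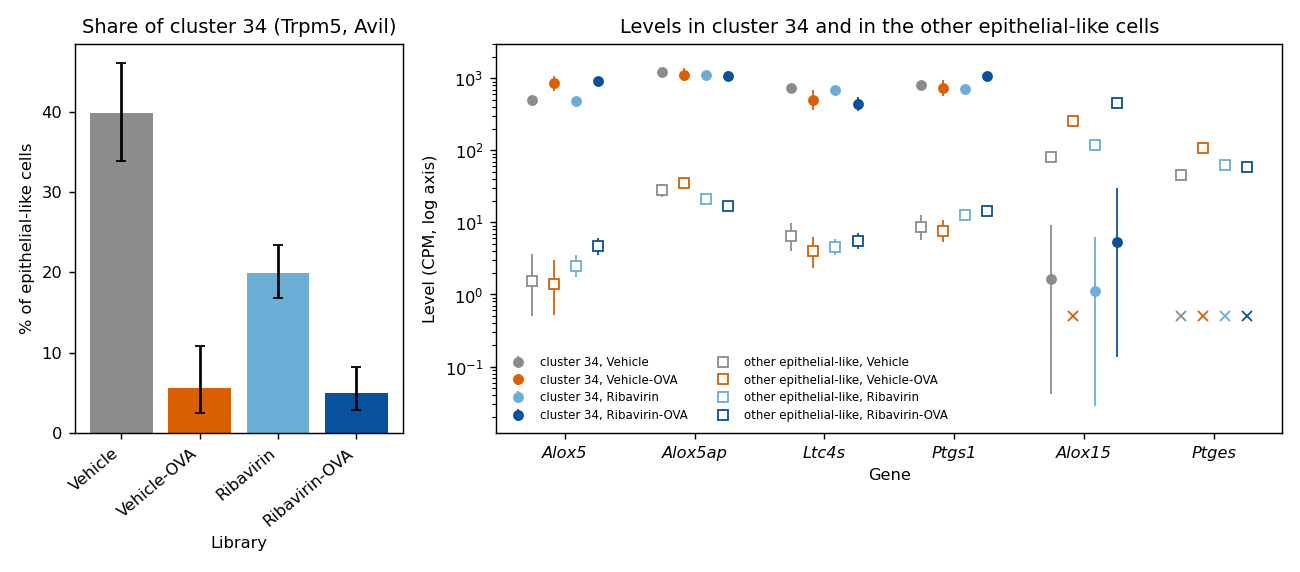
Left, share of cluster 34 among epithelial-like cells in each library (%, bars from 0, with 95% binomial intervals). Right, levels (CPM, log axis) of 6 members in cluster 34 (filled circles) and in the other epithelial-like cells (open squares), 1 point per library with 95% counting intervals, crosses marking no UMI; Alox5, Alox5ap, Ltc4s and Ptgs1 are higher in cluster 34, Alox15 and Ptges in the other cells.

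Ribavirin was compared at matched allergen. In Siglecf neutrophils 0 of the 8 members were at least 2-fold apart between Ribavirin and Vehicle, where 0.773% of all genes were, and 0 of 8 between Ribavirin-OVA and Vehicle-OVA, where 3.83% were. Ltc4s was 0.919-fold (0.878 to 0.962) and 0.927-fold (0.826 to 1.04). Both ratios were nearer to 1 than those of Ltc4s in the OVA pairs. In neutrophil-like cells 0 of 10 members were called between Ribavirin and Vehicle (1.83% of all genes). Between Ribavirin-OVA and Vehicle-OVA, 7 of 10 were called, 5 higher and 2 lower, against 23.2% of all genes. Lta4h was 7.13-fold (6.48 to 7.84), Ptgs1 2.75-fold, Alox5 2.64-fold and Ltc4s 2.40-fold, and Ptgs2 was at 0.451-fold. The makeup of the class by cluster differed between these libraries, as given above, and the median log2 ratio of all genes was 0.60. In macrophage-like cells 0 of 8 were called between Ribavirin and Vehicle (0.919% of all genes) and 1 of 8 between Ribavirin-OVA and Vehicle-OVA (5.97%), which was Ptgs2, at 0.458-fold (0.403 to 0.518). These comparisons share their libraries with the OVA pairs.

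Of 49 further genes of the pathway, 22 had enough UMIs in Siglecf neutrophils, and 2 were called higher in both OVA pairs and none lower, beside 5.94% of all genes. Ggt1, a gamma-glutamyltransferase that turns LTC4 into LTD4, was 5.68-fold (2.80 to 11.7) and 2.72-fold (1.56 to 4.75). Its levels were low, at 1.82, 10.3, 4.23 and 11.5 CPM. Tbxas1, thromboxane synthase, was 3.44-fold (2.08 to 5.61) and 4.60-fold (3.01 to 7.13), from 4.67, 16.0, 5.43 and 25.0 CPM. Its highest mean was in cluster 30, at 120, 121, 111 and 154 CPM. Ggt5, the other enzyme that cleaves LTC4, had its highest mean level of all classes in Siglecf neutrophils, at 93.2, 172, 102 and 209 CPM, from 818, 333, 679 and 527 UMIs. Neutrophil-like cells had 62.3, 56.7, 56.5 and 124 CPM of Ggt5. Pla2g4a, the phospholipase that releases arachidonic acid, was at 44.5, 45.5, 44.4 and 47.6 CPM in Siglecf neutrophils against 21.4, 8.74, 12.4 and 10.2 CPM in neutrophil-like cells. Siglecf neutrophils thus held genes for release, conversion to LTC4, cleavage and the receptor, and these genes were also detected in neutrophil-like cells.

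In neutrophil-like cells 2 of 26 pathway genes were called (3.58% of all genes), both higher, Ggt1 at 2.86-fold (2.15 to 3.88) and 2.86-fold (2.09 to 3.93) and the LTC4 exporter Abcc1 at 7.89-fold (6.59 to 9.51) and 2.52-fold (2.13 to 2.997). In macrophage-like cells 1 of 27 was called (3.79% of all genes), the PGE2 receptor Ptger2, higher at 3.35-fold (1.19 to 8.31) and 2.66-fold (1.10 to 5.79) from few UMIs, and in T cell-like cells 0 of 28 (8.78%). Cyp4f18, which inactivates LTB4, was at 474, 709, 506 and 433 CPM in neutrophil-like cells against 391, 446, 411 and 507 CPM in Siglecf neutrophils, which were higher in Ribavirin-OVA. Neutrophil-like cells had the highest mean level of Fpr2, a receptor for lipoxin A4, at 278, 728, 326 and 599 CPM. Pla2g7, the phospholipase that breaks down platelet-activating factor, had its highest mean in cluster 7 at 929, 873, 869.7 and 512 CPM. The prostaglandin transporter Slco2a1 had its highest mean in endothelial-like cells at 378, 207, 408 and 219 CPM, and the PGE2 receptor Ptger4 in macrophage-like cells at 141, 176, 139 and 164 CPM. Ptgds, the other PGD2 synthase, had its highest mean in stromal-like cells, of which the libraries held 27, 32, 65 and 36, with 1415, 0, 86 and 0 UMIs.

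The genes most like each member were taken by Pearson's r of log2(CPM + 1) over 44 points, 11 classes in 4 libraries, among 16714 genes. The points share libraries and cells of related types, so r is a description. Ltc4s was most like Rcan1 (0.89), Exoc3l4 (0.88) and Ptgs1 (0.88), the last of them a member. Alox5 was most like Slco4c1 (0.91), Gcnt1 (0.91) and Ceacam10 (0.90), and Alox5ap like Pirb (0.95), Csf2rb (0.95) and Skap2 (0.94). For Lta4h they were Cnn2 (0.81), Zdhhc3 (0.80) and Pfkp (0.79), lower than for any other member. Alox15 went with Bpifb1 (0.98), Alox12e (0.98) and Kcnj16 (0.97), of which Alox12e is another lipoxygenase. For Ptgs1 they were Usp2 (0.92), Pald1 (0.92) and Cd63 (0.90), and for Ptgs2 Il1b (0.96), Cd300ld (0.96) and Nlrp3 (0.96), of which Il1b encodes interleukin-1 beta and Nlrp3 an inflammasome sensor. Hpgds was most like Tanc2 (0.92), Myh10 (0.88) and Neurl1a (0.86). Ptges was most like Tm4sf1 (0.90), Glis3 (0.89) and Pcdh17 (0.89), and Cysltr1 like Fam105a (0.93), Ilk (0.92) and Sh3bp1 (0.91). Between the members Ptgs1 and Ptgs2 r was 0.68.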

How the data were processed

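For each library the authors deposited UMI counts per gene and cell barcode, as integers with no normalization, made with Cell Ranger 5.0.0 on mm10 per the submitters' processing notes. CD45+ cells had been enriched with magnetic beads per the labels, while the series text names fluorescence-activated sorting. The members and lists were chosen with earlier results of these data known.

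From the counts, cells with at least 500 UMIs, 200 genes and under 10% mitochondrial UMIs were kept. Each library was scored for doublets as Scrublet does, and the cells marked (0.794% to 5.14% of cells, under the expected 4.12% to 11.3%, so doublets remain) were removed. Vehicle-OVA gave no usable score minimum and took the ratio of the other libraries. All libraries were clustered together on 2000 variable genes, without the members, the pathway list and Siglecf, with 30 principal components, 15 neighbours and Leiden resolution 1.0, and no batch correction (Python 3.11.15, scikit-learn 1.9.0, leidenalg 0.10.2). Clusters were named from marker lists, with at least 3 detected markers, and named classes carry "-like" because they are rebuilt here. CPM come from the summed UMIs of a class in a library. Intervals are exact (Poisson for levels, conditional binomial for ratios, Clopper-Pearson for shares). Folds are ratios of CPM, and calls and log2 ratios add a pseudocount of 1 CPM. Named genes were all 10 members, the pathway genes called in both OVA pairs in the 4 classes counted most, the genes of each pathway sublist with the highest level, and the 3 genes most like each member by Pearson's r. Pla2g4a and Ggt5, and the clusters singled out in the text, were chosen after their values were seen. Alternatives varied the filters, doublet removal, clustering, class definition, totals and pseudocount, and the script was tested on simulated data. Gene positions are GENCODE M21 (GRCm38).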

Additional observations from a re-analysis of the deposited data

Results flagged for a closer look

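A member was listed where it differed between the OVA library and its control in opposite directions with vehicle and with ribavirin, with both counting intervals clear of equal levels, 1 of the log2 ratios at least 1 in size and the other at least 0.5. This held for 5 genes, and the difference between the pairs was not tested. The share of all genes that meet this rule was not taken, so the count is not particular to the members. In neutrophil-like cells the median log2 ratio over all genes was itself -0.40 in the Vehicle pair and 0.36 in the Ribavirin pair. In neutrophil-like cells the log2 ratio of Alox5 was -1.02 in the Vehicle pair and 0.75 in the Ribavirin pair. That of Lta4h was -0.72 in the Vehicle pair and 1.48 in the Ribavirin pair, and that of Ptgs1 -1.17 in the Vehicle pair and 0.87 in the Ribavirin pair. In T cell-like cells the log2 ratio of Ptgs2 was 3.88 in the Vehicle pair and -1.07 in the Ribavirin pair. In cluster 13, led by Foxp3, that of Ptgs2 was 2.22 in the Vehicle pair and -1.17 in the Ribavirin pair. Alox5ap in cluster 13 was 2.01 in the Vehicle pair and -0.82 in the Ribavirin pair. In both lymphocyte groups the summed neutrophil markers, in CPM, were also highest in Vehicle-OVA.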

How the results depend on the processing

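With 1 library per group, no library could be left out, and no spread between mice is known. No paired analysis was possible because the groups share only replicate number 1. Every alternative kept Ltc4s higher in Siglecf neutrophils. Against all other cells, the lowest log2 ratio of the 4 libraries, 4.58, became 3.72 at a mitochondrial limit of 20%, 3.91 with doublets kept, 3.76 with 1000 UMIs and 500 genes required, 4.04 at resolution 2.0, 3.47 when clustering was done library by library, 3.53 with classes from single-cell UMIs and 4.08 with the mean of single-cell CPM. Chosen after seeing the data were only cells with a Siglecf UMI (4.41) and a Siglecf limit of 15%, which adds cluster 1 (3.63). The range was 11.1-fold to 25.2-fold. Against neutrophil-like cells, 2.96 became 3.16 and 4.43 at mitochondrial limits of 5% and 20%, 3.77 with 1000 UMIs, 3.10 and 3.76 at resolutions 0.5 and 2.0, 3.15 with member genes among the variable genes, 2.51 with single-cell UMIs, 3.13 with mean CPM and 3.26 at the 15% limit (5.70-fold to 21.6-fold).

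Counts of members called in both OVA pairs moved by 1 or 2 genes. In Siglecf neutrophils 0 became 2 at a mitochondrial limit of 5% (Ltc4s lower, Ptgs2 higher) and 1 less the median of all genes (Ltc4s). In neutrophil-like cells 1 became 2 at limits of 5% and 20%, with doublets kept, 1000 UMIs, resolution 0.5, single-cell UMIs (where Ptges was lost) and mean CPM, and 3 at a pseudocount of 0.1 CPM. In macrophage-like cells 0 became 1 with 1000 UMIs and with no UMI minimum, and 2 with each library on its own and with single-cell UMIs. It stayed 0 without the shallow cluster 17 and with clusters 7 and 30 added, both chosen after seeing the data. In T cell-like cells 1 became 0 at a limit of 5%, with each library on its own, single-cell UMIs, mean CPM and less the median, and 2 at a limit of 20%, 1000 UMIs, resolutions 0.5 and 2.0 and a pseudocount of 0.1. Members with the same highest class in all libraries numbered 8, and 5 at limits of 5% and 20% and with mean CPM. Single-cell UMIs give no such count. Of 940 values of single member ratios under alternatives, 828 kept their direction. Of the 940, 561 lay within the counting interval of the main setting and 375 lay outside it. The other 4 were values of ratios called at 2-fold that turned. Alox5 in T cell-like cells, from few UMIs, was -0.10 (each library on its own) and -0.061 (single-cell UMIs) in the Vehicle pair and -0.38 (limit of 5%) in the Ribavirin pair, and Ptgs2 there was 0.50 (single-cell UMIs) in the Ribavirin pair. The cause of these shifts was not tested.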
